A study of Homo sapiens with 24 samples.

Results

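Fibronectin and 9 integrin subunits were followed through human THP1 macrophages that lacked CD33, had reduced PTPN6, or both. Members were the rows of the raw count matrix whose Ensembl identifiers mapped to FN1, ITGA1, ITGA4, ITGA5, ITGA6, ITGAV, ITGB1, ITGB3, ITGB5 and ITGB7. These are 10 of 60617 gene identifiers, and all 10 had enough counts to be among the 13098 genes tested. None was chosen by a threshold on its values, but the choice was made with earlier results of these data known.

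THP1 is an established monocytic leukaemia line. Wild-type (WT) or CD33 knockout (CD33KO) cells received lentivirus carrying empty pLKO.1 (shCTRL) or pLKO.1 with a hairpin against PTPN6 (shPTPN6), were selected with puromycin at 1 µg/ml, and became adherent macrophages after 48 hours in 10 ng/ml of the phorbol ester PMA and 48 hours without it. The groups were WT_shCTRL, WT_shPTPN6 and CD33KO_shCTRL with 6 libraries each and CD33KO_shPTPN6 with 5, since its replicate 2 was not analysed here. Every group, controls included, thus carries lentivirus, puromycin selection and PMA. The control vector is empty rather than a hairpin without a target, only 1 hairpin was used, and the labels do not say how many clones make up the knockout line. They also do not say whether replicates were separate cultures, so p-values measure the spread between these libraries, which may be technical.

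Integrins are receptors made of an alpha and a beta subunit that bind extracellular matrix or other cells and link them to actin through talin and kindlin. The pair of subunits sets the ligand. Alpha5 with beta1 is the classical fibronectin receptor, alphaV pairs with beta1, beta3 or beta5 to bind fibronectin and vitronectin, alpha4 with beta1 or beta7 binds VCAM-1, MAdCAM-1 and an alternatively spliced segment of fibronectin, alpha6 with beta1 binds laminins, and alpha1 with beta1 binds collagens. Macrophages make fibronectin themselves, and PMA-treated monocytic cells attach to plastic through integrins. CD33 is an inhibitory Siglec receptor, and PTPN6 encodes SHP-1, a tyrosine phosphatase recruited by such receptors.

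Values are CPM, read counts divided by the library's total and set to a common depth by trimmed mean of M values (TMM) scaling, and means are ± SD over the libraries of a group. The libraries read the 3' ends of transcripts, so levels of different genes were not ranked against each other. Wild-type libraries summed to between 3318001 and 6269304 counts, and most knockout libraries were shallower, with 2048161 to 3749258 counts for the control vector and 2024032 to 2581042 for the hairpin. PTPN6 stood at 44.6 ± 6.24 CPM in WT_shCTRL and 10.6 ± 1.45 in WT_shPTPN6, and at 37.7 ± 3.88 in CD33KO_shCTRL and 7.41 ± 2.75 in CD33KO_shPTPN6. CD33 stood at 45.5 ± 3.24 CPM in WT_shCTRL, 88.8 ± 5.33 in WT_shPTPN6, 20.2 ± 2.45 in CD33KO_shCTRL and 23.5 ± 4.86 in CD33KO_shPTPN6. It thus fell with knockout under the control vector, and it rose by 0.97 ± 0.07 on the log2 scale with knockdown in wild type (adjusted p = 3.31e-19 and 4.95e-23). The labels do not place the edit, and 3' end reads outside it do not check the knockout.

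The members differ in what their 3' end counts can hold. The collagen receptor subunit ITGA1 (chr5:52787896-52959210, plus strand, GRCh38) shares its 5' end with PELO (chr5:52787940-52804046, plus strand), a ribosome rescue factor that lies in the opening of the ITGA1 gene. Their annotated 3' ends are 155164 bases apart. Antisense genes cover the 3' ends of ITGA1, ITGA5, ITGA6, ITGAV and ITGB3, and none of these antisense genes held more than 137 reads over all libraries. A readthrough gene on the same strand as ITGB3, AC068234.1, covers the 3' end of ITGB3 and held 0 reads. How reads lying in both genes were counted is not given. The low counts of these overlapping genes thus do not show whether ITGA1, ITGA5, ITGA6, ITGAV or ITGB3 lost reads to the overlaps. FN1 (chr2:215360440-215436172, minus strand) overlaps no other gene in the annotation. The 250 bases upstream of both starts, from the RefSeq promoter table for GRCh38.p14, are shown because FN1 had the largest difference between the knockdown effects of the 2 genotypes and ITGA1 had the largest change of all members. The FN1 window is chr2:215436069-215436318 on the minus strand, and the ITGA1 window is chr5:52787666-52787915 on the plus strand. The RefSeq starts lie inside both genes as annotated above, so each window includes some bases of its gene. Positions before the start refer to the RefSeq start. Capitals mark matches, on either strand, to motifs that were searched after the sequences had been seen.

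FN1: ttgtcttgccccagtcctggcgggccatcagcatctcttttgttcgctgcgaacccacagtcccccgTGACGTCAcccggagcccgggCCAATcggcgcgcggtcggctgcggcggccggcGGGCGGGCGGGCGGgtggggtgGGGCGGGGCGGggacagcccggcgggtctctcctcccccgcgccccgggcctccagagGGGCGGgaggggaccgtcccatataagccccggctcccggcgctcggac

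ITGA1: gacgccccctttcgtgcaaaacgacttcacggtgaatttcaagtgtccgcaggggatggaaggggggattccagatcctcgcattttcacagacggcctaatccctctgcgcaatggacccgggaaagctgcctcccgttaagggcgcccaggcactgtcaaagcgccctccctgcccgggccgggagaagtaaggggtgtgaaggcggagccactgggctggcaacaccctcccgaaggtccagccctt

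In the FN1 window the capitals are, from the 5' end, a cyclic AMP response element (TGACGTCA) from 183 to 176 bases before the start, a CCAAT box from 162 to 158 bases before it, and 6 GC boxes (GGGCGG), several of which overlap each other. FN1 is 76.4% G and C in this stretch and ITGA1 62.0%. Of 34943 windows of the same length in the table, 1.63% held the cyclic AMP response element, 32.0% CCAAT and 42.5% GGGCGG. The ITGA1 window held none of these letters, nor the AP-1 site TGANTCA (6.59% of windows), the PU.1 core GAGGAA (23.6%) or TATAAA (10.8%). PELO has the identical window as ITGA1 in the table. A match is a description of letters and not a bound site. Promoter sequence was matched for 9 of the 10 members, all but ITGB3.

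Most members differed between groups, in both directions. A gene was called when its Benjamini-Hochberg adjusted p in edgeR's quasi-likelihood test over all 13098 genes was under 0.05. With the control vector, CD33 knockout raised 6 of the 10 members and lowered 2, against 28.3% of all tested genes called higher and 28.4% called lower. PTPN6 knockdown in wild type raised 5 and lowered 4, against 30.2% and 30.4%. The median absolute log2 fold change of the members was 0.70 for the knockout and 0.72 for the knockdown, beside 0.34 and 0.35 over all tested genes. Signed medians over the members were 0.54 and 0.12, beside -0.01 and 0.00. Both comparisons use the same WT_shCTRL libraries and are therefore not independent of each other. Since members were chosen with earlier results of these data known, their shares and medians beside those of all genes are descriptive only. Members were also compared 2 groups at a time by exact permutation of the library labels (log2 CPM, two-sided), 50 tests in all. In 41 of them the groups did not overlap, and each of these gave the smallest unadjusted exact p that the numbers of libraries allow, 0.00216 for 6 against 6 and 0.00433 for 6 against 5. By comparison, 8 of 10 members did not overlap for the knockout with control vector and 8 for the knockdown in wild type, against 34.1% and 37.4% of all tested genes. For both changes against WT_shCTRL it was 9 members against 45.7%, for the knockdown in the knockout 7 against 24.2%, and for the knockout with the hairpin 9 against 37.2%. In bulk RNA, fewer cells making a transcript and less of it per cell cannot be told apart.

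**Figure D1:**
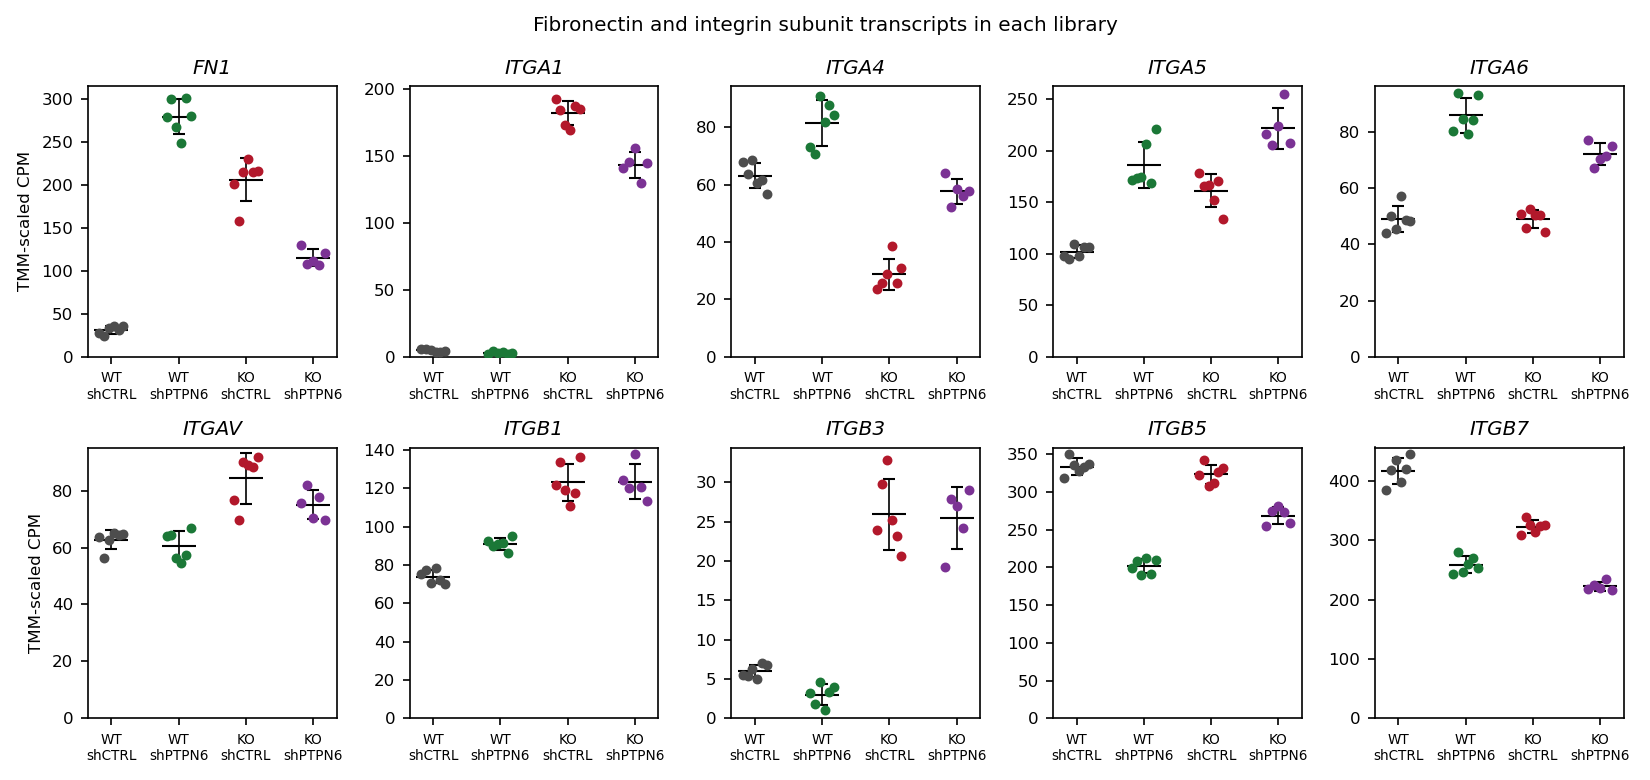
Each point is a library, the wide bar the group mean and the whiskers 1 SD, for fibronectin and 9 integrin subunits on linear axes of TMM-scaled CPM that start at 0. FN1 lies at 24.1 to 36.1 CPM in WT_shCTRL and above 100 in every library of the other groups, whereas ITGA1 and ITGB3 are high in both knockout groups only.

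Fibronectin, the ligand, rose with either perturbation alone and rose less with both. FN1 ranged from 24.1 to 36.1 CPM with a median of 32.2 in WT_shCTRL. It ranged from 248.5 to 301.3 with a median of 279.6 in WT_shPTPN6, and from 158.6 to 229.9 with a median of 215.5 in CD33KO_shCTRL. The 5 libraries with both changes held 129.9, 108.3, 111.8, 106.7 and 120.6 CPM. No 2 of the 4 groups overlapped, and their order from low to high was WT_shCTRL, CD33KO_shPTPN6, CD33KO_shCTRL, WT_shPTPN6. The lowest CD33KO_shCTRL library, replicate 2, lay below the other 5 and still above every library with both changes.

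The knockout with control vector had 6.57-fold more FN1 than WT_shCTRL (log2 2.71 ± 0.08 SE, adjusted p = 2.30e-37). Knockdown in wild type had 8.87-fold more (3.15 ± 0.07, adjusted p = 9.79e-42). In the knockout the same hairpin went with a fall of 0.84 ± 0.08 on the log2 scale (adjusted p = 6.05e-14), so the sign of the knockdown effect on FN1 depended on the genotype. The difference between both knockdown effects, the interaction, was -3.99 ± 0.11 (adjusted p = 1.74e-37). Over all tested genes 14.5% were called higher and 13.9% lower for the interaction. Among the members 3 were called higher (ITGA4, ITGB3, ITGB5) and 3 lower (ITGA5, ITGB1, FN1).

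Alpha5, the partner of beta1 in the classical fibronectin receptor, rose with each perturbation and was highest with both. ITGA5 (chr12:54395261-54419460, minus strand) ranged from 94.5 to 109.2 CPM in WT_shCTRL with a median of 102.0. The range was 133.3 to 177.9 in CD33KO_shCTRL (median 166.4) and 169.0 to 220.9 in WT_shPTPN6 (median 173.7). CD33KO_shPTPN6 held 216.3, 205.7, 223.5, 254.6 and 207.3 CPM. All 17 libraries with a perturbation lay above all 6 of WT_shCTRL, while neighbouring groups above it overlapped each other. ITGA5 was 0.66 ± 0.06 higher with knockout, 0.86 ± 0.06 with knockdown in wild type and 1.12 ± 0.07 with both (log2, adjusted p = 1.61e-14, 3.33e-21 and 4.52e-25). Its knockdown effect was smaller in the knockout, 0.45 ± 0.07, with an interaction of -0.41 ± 0.09 (adjusted p = 2.50e-04).

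The common partner beta1 followed genotype more than hairpin. ITGB1 (chr10:32900319-33005792, minus strand) lay at 69.9 to 78.4 CPM in WT_shCTRL (median 73.5) and 86.0 to 94.9 in WT_shPTPN6 (median 91.2). It lay at 110.9 to 136.0 CPM in CD33KO_shCTRL (median 120.5) and at 124.5, 120.2, 137.8, 120.6 and 113.3 in CD33KO_shPTPN6. The 3 levels did not overlap, but both knockout groups covered the same range. Knockout raised ITGB1 by 0.73 ± 0.06 and knockdown in wild type by 0.30 ± 0.06 on the log2 scale (adjusted p = 1.04e-19 and 8.04e-06). In the knockout the knockdown estimate was 0.00 with a 95% interval of -0.13 to 0.14 (adjusted p = 0.962), and the interaction was -0.29 ± 0.09 (adjusted p = 0.00792).

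Alpha4, which also pairs with beta1 or beta7, was the only alpha subunit of the members that fell with the knockout under the control vector. ITGA4 (chr2:181457202-181536187, plus strand) ranged from 56.9 to 68.4 CPM in WT_shCTRL (median 62.6) and from 23.5 to 38.5 in CD33KO_shCTRL (median 27.3). It ranged from 70.8 to 91.0 in WT_shPTPN6 (median 83.1), and CD33KO_shPTPN6 held 64.2, 52.1, 58.3, 56.2 and 57.7 CPM. Knockout libraries with control vector were the lowest, and libraries with both changes overlapped WT_shCTRL. The knockout effect was -1.14 ± 0.09 and the knockdown effect 0.37 ± 0.07 in wild type and 1.00 ± 0.11 in the knockout (log2, adjusted p = 2.47e-21, 2.90e-06 and 1.98e-14). The interaction was 0.64 ± 0.13 (adjusted p = 2.47e-05). With both changes the estimate against WT_shCTRL was -0.13 with a 95% interval of -0.30 to 0.04 (adjusted p = 0.176).

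AlphaV showed smaller differences that went with genotype. ITGAV (chr2:186590065-186680901, plus strand) had means of 62.8 ± 3.32 CPM in WT_shCTRL and 60.6 ± 5.18 in WT_shPTPN6, and of 84.3 ± 8.94 in CD33KO_shCTRL and 75.0 ± 5.13 in CD33KO_shPTPN6. All 11 knockout libraries, from 69.5 CPM upwards, lay above all 12 wild-type ones, which reached 67.0. Knockout raised ITGAV by 0.43 ± 0.07 with the control vector and by 0.30 ± 0.08 with the hairpin (log2, adjusted p = 1.35e-07 and 6.73e-04). The knockdown estimates were -0.05 in wild type and -0.18 in the knockout (adjusted p = 0.532 and 0.0743), and the interaction was -0.12 ± 0.11 (adjusted p = 0.427). Without CD33KO_shCTRL replicate 2, the lowest of its group, the knockdown estimate in the knockout became -0.23 with an adjusted p of 0.0203.

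Of the beta partners of alphaV, ITGB3 rose with knockout as ITGAV did, but by more, and it also fell with knockdown in wild type. ITGB3 (chr17:47253846-47311816, plus strand), which pairs with alphaV or, on platelets, with the ITGA2B product, ranged from 5.05 to 7.07 CPM in WT_shCTRL (median 5.88) and from 1.09 to 4.58 in WT_shPTPN6 (median 3.27). It ranged from 20.7 to 32.8 CPM in CD33KO_shCTRL (median 24.6), and CD33KO_shPTPN6 held 19.3, 27.9, 26.9, 24.2 and 29.03. Wild-type libraries held 4 to 41 reads of it and knockout libraries 39 to 87. Every knockout library lay above every wild-type library, and the 2 knockout groups overlapped. Knockout raised ITGB3 4.28-fold (log2 2.10 ± 0.16, adjusted p = 7.01e-23), and knockdown in wild type lowered it by 0.92 ± 0.21 (adjusted p = 8.07e-05). In the knockout the knockdown estimate was -0.01 with a 95% interval of -0.31 to 0.29 (adjusted p = 0.962), and the interaction was 0.91 ± 0.26 (adjusted p = 0.00391).

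ITGB5 (chr3:124761948-124901418, minus strand), the beta subunit of the vitronectin receptor alphaV beta5, followed the hairpin instead. Its means were 333.3 ± 10.9 CPM in WT_shCTRL and 323.3 ± 12.7 in CD33KO_shCTRL, whose libraries overlapped, and 201.8 ± 9.78 in WT_shPTPN6 and 268.5 ± 11.1 in CD33KO_shPTPN6. All 11 libraries with the hairpin, at 189.9 to 281.0 CPM, lay below all 12 with the empty vector, at 307.6 to 350.6. Knockdown lowered ITGB5 by 0.72 ± 0.05 in wild type and by 0.27 ± 0.05 in the knockout (log2, adjusted p = 5.95e-28 and 8.35e-06), with an interaction of 0.46 ± 0.07 (adjusted p = 3.91e-08). The knockout estimate with control vector was -0.04 with a 95% interval of -0.13 to 0.05 (adjusted p = 0.444).

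ITGB7 (chr12:53191318-53207307, minus strand), the partner of alpha4 in the gut-homing receptor, was lower in each perturbed group than in the control. Means fell in the order 417.3 ± 22.4 CPM in WT_shCTRL, 323.4 ± 10.7 in CD33KO_shCTRL, 259.0 ± 14.4 in WT_shPTPN6 and 222.5 ± 7.71 in CD33KO_shPTPN6, and no 2 groups overlapped. Knockout lowered it by 0.37 ± 0.05, knockdown in wild type by 0.69 ± 0.05 and both by 0.91 ± 0.05 (log2, adjusted p = 2.24e-11, 9.16e-27 and 1.67e-31). The interaction of 0.15 ± 0.07 was not called (adjusted p = 0.102). The 3' end of ITGB7 lies inside ZNF740 on the opposite strand, and the counting is not stated to use strand. ZNF740 held 2778 reads in all libraries together against 26462 for ITGB7, and its means stayed between 30.3 and 36.4 CPM. It was called higher with knockdown in wild type (log2 0.25, edgeR adjusted p = 0.0157) and with both changes (0.26, adjusted p = 0.0345). How reads lying in both genes were counted is not given, so these counts do not show whether ITGB7 lost or gained reads.

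Alpha6, a laminin receptor subunit, changed with the hairpin. ITGA6 (chr2:172427354-172506282, plus strand) had nearly equal means of 49.0 ± 4.58 CPM in WT_shCTRL and 49.1 ± 3.22 in CD33KO_shCTRL, and 86.0 ± 6.29 in WT_shPTPN6 and 72.3 ± 3.91 in CD33KO_shPTPN6. All 11 hairpin libraries, at 67.2 to 93.9 CPM, lay above all 12 empty-vector libraries, at 44.1 to 57.2. Knockdown raised ITGA6 by 0.80 ± 0.07 in wild type and by 0.56 ± 0.09 in the knockout (log2, adjusted p = 6.42e-20 and 7.11e-08). The knockout estimate was 0.00 with a 95% interval of -0.15 to 0.16 (adjusted p = 0.983), and it took either sign under other settings. The interaction of -0.25 ± 0.11 was not called (adjusted p = 0.0854), but was without WT_shCTRL replicate 4 (-0.31, adjusted p = 0.0255) or CD33KO_shCTRL replicate 6 (-0.29, adjusted p = 0.0475).

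Alpha1, the collagen receptor subunit, had the largest change of the 10. ITGA1 ranged from 3.37 to 6.08 CPM in WT_shCTRL (median 4.93) and from 2.10 to 4.22 in WT_shPTPN6 (median 2.74), which is 7 to 29 reads per library. It ranged from 169.1 to 192.6 CPM in CD33KO_shCTRL (median 184.5), and CD33KO_shPTPN6 held 140.8, 145.3, 155.7, 129.4 and 144.8. Wild-type and knockout libraries were far apart, the 2 wild-type groups overlapped and the 2 knockout groups did not. Knockout raised ITGA1 38.0-fold with the control vector and 49.4-fold with the hairpin (log2 5.25 ± 0.10 and 5.63 ± 0.12, adjusted p = 1.64e-75 and 4.66e-70).

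Knockdown lowered ITGA1 by 0.34 ± 0.07 in the knockout (adjusted p = 1.75e-05). In wild type the knockdown effect was -0.72 ± 0.20 (adjusted p = 0.00115), and it became -0.12 with an adjusted p of 0.771 when all libraries were thinned to 2024032 counts. The interaction was 0.38 ± 0.21 (adjusted p = 0.186), with a value of -0.25 after thinning. PELO, which has the same upstream window, had means of 12.2 ± 1.69, 13.1 ± 2.73, 19.1 ± 2.93 and 18.8 ± 3.39 CPM in WT_shCTRL, WT_shPTPN6, CD33KO_shCTRL and CD33KO_shPTPN6. Its knockout effect was 0.65 ± 0.14 on the log2 scale (adjusted p = 4.62e-05), a fold of 1.57 beside 38.0 for ITGA1.

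**Figure D2:**
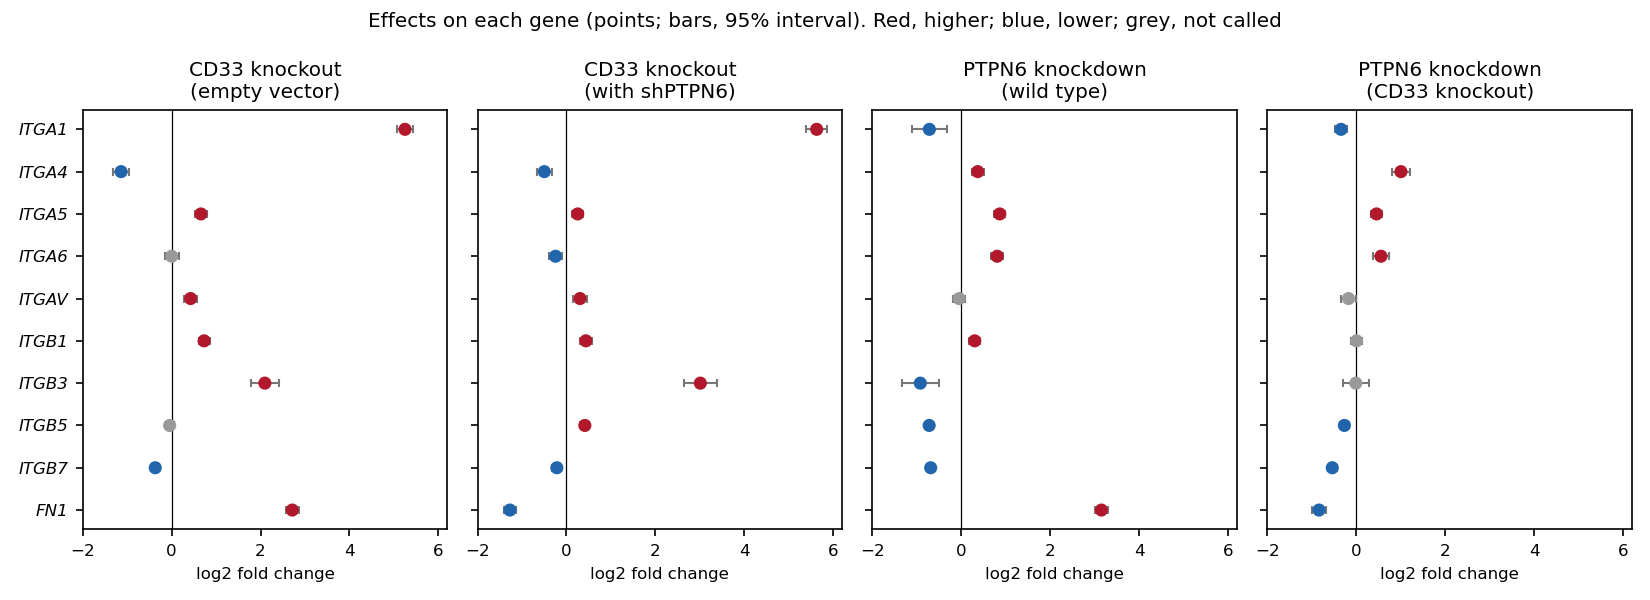
Points are log2 fold changes of the 10 genes with 95% intervals, for the knockout with either vector and for the knockdown in either genotype. Red points were called higher, blue lower and grey not called, and the FN1 point changes side between the 2 knockdown panels, from 3.15 to -0.84.

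The knockout effect in cells that carry the hairpin was called for all 10 members. It was higher for 6 and lower for 4, against 29.0% and 27.5% of tested genes. FN1 changed side here as well, with 2.42-fold less in CD33KO_shPTPN6 than in WT_shPTPN6 (log2 -1.27 ± 0.07, adjusted p = 1.52e-22). ITGB3 was 8.06-fold higher (3.01 ± 0.19, adjusted p = 1.30e-27), ITGB1 0.44 ± 0.07 and ITGB5 0.41 ± 0.05 higher, and ITGA4 0.50 ± 0.09 lower (adjusted p = 1.01e-08, 1.43e-11 and 2.67e-07). ITGA6 at -0.25 and ITGB7 at -0.22 were lower without overlap (adjusted p = 0.00438 and 2.50e-04). ITGA5, at 0.25 ± 0.06 (adjusted p = 5.72e-04), was the only member whose groups overlapped in this comparison.

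Knockdown in the knockout raised 3 members (ITGA4, ITGA5, ITGA6) and lowered 4 (ITGA1, ITGB5, ITGB7, FN1), against 20.5% and 21.6% of tested genes. The fall of ITGB7 was 0.54 ± 0.05 (adjusted p = 1.52e-15). Of the 9 members called for knockdown in wild type, ITGB1 and ITGB3 were not called here, and FN1 was called in the opposite direction.

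With both changes against WT_shCTRL, 7 members were higher and 2 lower, against 32.1% and 31.7% of tested genes. The rises were ITGA1 at 4.91 ± 0.10, ITGB3 at 2.09 ± 0.17, FN1 at 1.88 ± 0.09, ITGA5 at 1.12 ± 0.07, ITGB1 at 0.74 ± 0.07, ITGA6 at 0.56 ± 0.08 and ITGAV at 0.25 ± 0.08 on the log2 scale. ITGB7 and ITGB5 fell by 0.91 ± 0.05 and 0.31 ± 0.05. FN1 departed most from the sum of its separate effects, which was 5.86 against a measured 1.88. For the other members the sum and the measured value were 4.53 and 4.91 (ITGA1), 1.52 and 1.12 (ITGA5), 1.03 and 0.74 (ITGB1), 0.81 and 0.56 (ITGA6) and 0.38 and 0.25 (ITGAV). They were 1.17 and 2.09 for ITGB3, -0.77 and -0.13 for ITGA4, -0.77 and -0.31 for ITGB5, and -1.06 and -0.91 for ITGB7. The test of each gap is the interaction given with that gene.

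**Figure D3:**
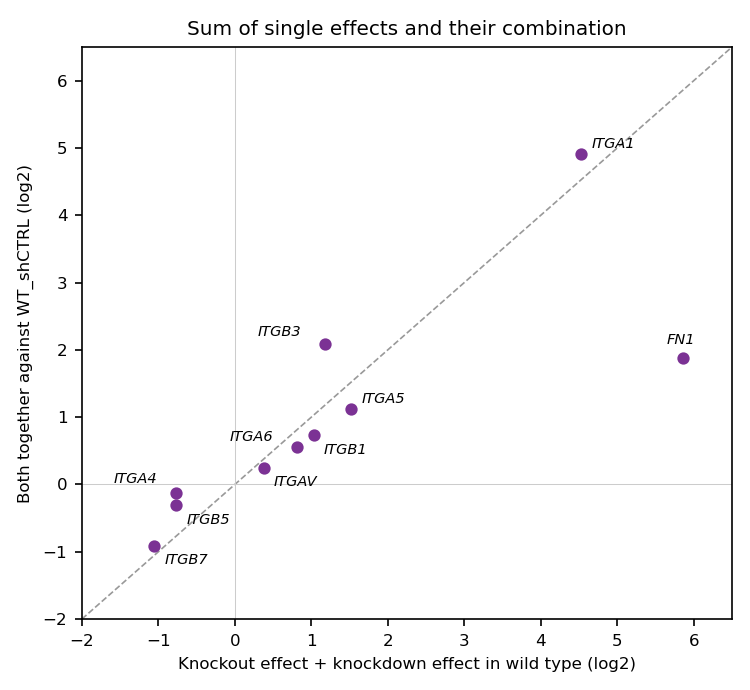
The x axis is the sum of the knockout effect and the knockdown effect in wild type, the y axis the effect of both together against WT_shCTRL, both log2 fold changes, and the dashed line marks equality. FN1 lies far below the line at 5.86 and 1.88, and ITGB3 lies above it at 1.17 and 2.09.

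The other integrin subunits, described by counts from a list of 12, included 7 that could be tested. With the knockout 3 rose and 4 fell, and with knockdown in wild type 2 rose and 5 fell, with median log2 changes of -0.42 and -1.86. Over all tested genes, 28.3% were called higher and 28.4% lower with knockout, and 30.2% and 30.4% with knockdown in wild type. ITGB8, the beta subunit that with alphaV activates latent TGF-beta, stood at 2.10 ± 0.82 CPM in WT_shCTRL, 7.57 ± 0.99 in WT_shPTPN6, 45.8 ± 6.46 in CD33KO_shCTRL and 61.4 ± 4.69 in CD33KO_shPTPN6. It rose by 4.40 ± 0.16 with knockout and by 1.83 ± 0.20 with knockdown in wild type (log2, adjusted p = 3.67e-48 and 9.87e-14). ITGA7, a laminin receptor subunit, fell by 1.24 ± 0.11 and by 1.75 ± 0.10 (adjusted p = 1.29e-18 and 3.84e-30). ITGA2 and ITGA3, subunits of collagen and laminin receptors, rose by 0.82 ± 0.18 and 1.14 ± 0.17 with knockout, and with knockdown in wild type they fell by 2.43 ± 0.25 and fell by 2.19 ± 0.23.

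The leukocyte beta2 family, which binds ICAMs and complement fragments, had 4 tested genes of 5. All 4 rose with knockdown in wild type, with a median log2 change of 1.00, against 30.2% of all tested genes called higher. With knockout 1 rose and 2 fell, against 28.3% and 28.4% of all tested genes. ITGAM (CR3 alpha chain) went from 62.4 ± 5.35 to 176.6 ± 10.3 CPM with knockdown in wild type, a rise of 1.50 ± 0.06 on the log2 scale, and had 59.3 ± 1.31 and 60.6 ± 6.23 in the knockout groups (interaction -1.47 ± 0.10, adjusted p = 9.63e-24). ITGAX (CR4 alpha chain) rose by 1.25 ± 0.07 with knockout and by 0.86 ± 0.07 with knockdown (adjusted p = 9.73e-27 and 7.13e-19). ITGAL (LFA-1 alpha chain) fell by 1.05 ± 0.12 with knockout and rose by 1.14 ± 0.09 with knockdown in wild type (adjusted p = 1.60e-12 and 6.16e-23).

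Among 35 tested genes of 36 that activate integrins or build the adhesion complex, 8 rose and 17 fell with knockout. With knockdown in wild type 10 rose and 16 fell (median log2 changes -0.11 and -0.09). The shares of all tested genes called higher and lower were 28.3% and 28.4% with knockout and 30.2% and 30.4% with knockdown. With knockout the adaptors and linkers VCL (vinculin), APBB1IP (the talin-recruiting protein RIAM) and ACTN4 (an alpha-actinin) fell by 1.16 ± 0.07, 1.04 ± 0.05 and 0.71 ± 0.05. The kinase SRC rose by 2.33 ± 0.12, from 8.33 ± 1.36 to 42.0 ± 4.23 CPM, and the paxillin relative LPXN by 1.35 ± 0.08. With knockdown in wild type the scaffold NEDD9 fell by 2.17 ± 0.07, the tensin TNS3 fell by 1.51 ± 0.06 and ACTN4 fell by 1.15 ± 0.05. LPXN rose by 1.50 ± 0.07, the scaffold BCAR1 (p130Cas) by 1.11 ± 0.12 and the adaptor CRK by 0.74 ± 0.06. The largest adjusted p among these 11 changes was 2.61e-14.

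Matrix ligands other than fibronectin moved in both directions. Of 28 tested of 42, 11 rose and 10 fell with knockout and 6 rose and 13 fell with knockdown in wild type (median log2 changes 0.31 and -0.42). All tested genes had 28.3% called higher and 28.4% lower with knockout, and 30.2% and 30.4% with knockdown. SPP1 (osteopontin, a ligand of alphaV integrins) had means of 11786 ± 453 CPM in WT_shCTRL, 4340 ± 138 in WT_shPTPN6, 3891 ± 396 in CD33KO_shCTRL and 3276 ± 113 in CD33KO_shPTPN6. TGFBI, another integrin ligand, fell by 2.38 ± 0.05 with knockout and rose by 1.01 ± 0.05 with knockdown in wild type (log2, adjusted p = 1.76e-67 and 6.49e-40). The collagen VI chain COL6A1 rose by 1.10 ± 0.05 and 0.77 ± 0.05 (adjusted p = 1.98e-37 and 1.21e-26). The laminin chain LAMC1 rose by 1.03 ± 0.06 with knockdown (adjusted p = 6.55e-33), and THBS2 (thrombospondin-2) fell by 2.96 ± 0.19 and 2.99 ± 0.17. HSPG2 (perlecan) stood at 23.3 ± 11.5 and 24.5 ± 7.48 CPM in WT_shCTRL and WT_shPTPN6 and at 11979 ± 1940 and 11028 ± 1498 in CD33KO_shCTRL and CD33KO_shPTPN6.

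Proteins that associate with integrins in the membrane were all tested, 20 of 20. With knockout 10 rose and 5 fell, against 28.3% and 28.4% of all tested genes. With knockdown in wild type 5 rose and 10 fell, against 30.2% and 30.4%. Median log2 changes were 0.14 and -0.20. The tetraspanin CD82 rose by 2.60 ± 0.06 with knockout and by 1.05 ± 0.06 with knockdown in wild type, and the scavenger receptor CD36 by 1.68 ± 0.05 and 0.98 ± 0.05 (largest adjusted p = 3.25e-32). CAV1 (caveolin-1) rose by 2.73 ± 0.12 with knockout (adjusted p = 4.23e-39). CD47, which binds beta3 integrins and thrombospondin, fell by 0.71 ± 0.07 and 0.81 ± 0.06, and CD44, the hyaluronan receptor, by 1.14 ± 0.05 with knockdown (largest adjusted p = 2.53e-17).

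In the remaining comparisons, the shares of all tested genes called higher and lower were 32.1% and 31.7% with both changes. The shares were 20.5% and 21.6% for knockdown in the knockout, 29.0% and 27.5% for the knockout with the hairpin, and 14.5% and 13.9% for the interaction. The lists split as follows. With both changes against WT_shCTRL, 1 other subunit rose and 4 fell, 2 beta2 integrin genes rose, 13 adhesion complex genes rose and 17 fell, 5 ligands rose and 12 fell, and 9 membrane partners rose and 5 fell. For knockdown in the knockout the numbers up and down were 1 and 3, 3 and 0, 11 and 11, 2 and 9, and 7 and 8 in the same order of lists. For the knockout with the hairpin they were 3 and 2, 1 and 2, 15 and 10, 11 and 8, and 11 and 2. Vinculin fell by 1.50 ± 0.08 and SRC rose by 2.34 ± 0.13 there, as with the control vector, while NEDD9 rose by 1.31 ± 0.09 (adjusted p = 3.85e-32, 9.00e-33 and 1.33e-24). For the interaction they were 3 and 1, 1 and 2, 13 and 7, 6 and 7, and 9 and 5, and SDC2 (syndecan-2, a fibronectin co-receptor) had 1.28 ± 0.06 (adjusted p = 1.96e-34), the reverse sign of FN1.

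**Figure D4:**
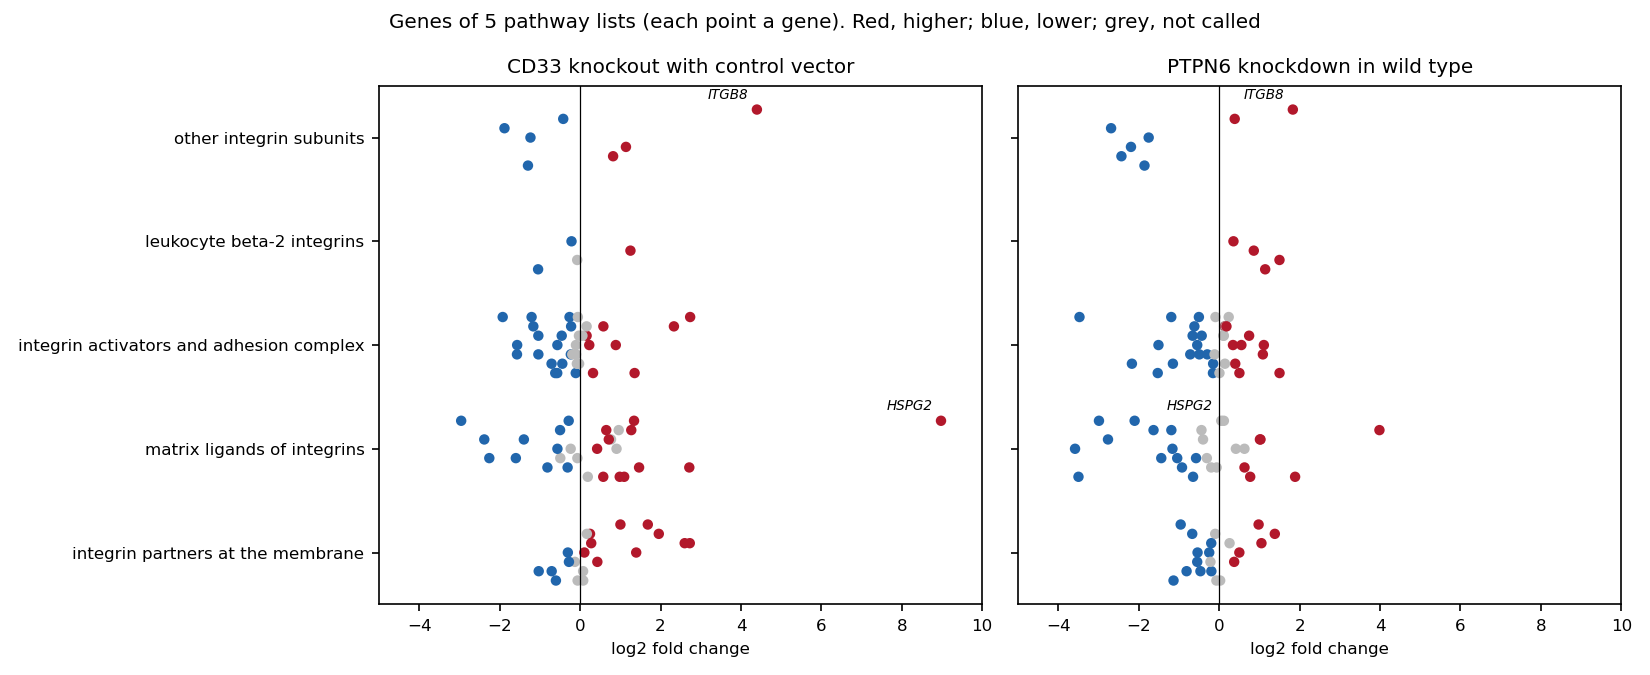
Each point is the log2 fold change of a tested gene of 5 lists around the 10 members, with the knockout at left and the knockdown in wild type at right, coloured red for called higher, blue for called lower and grey for not called. ITGB8 lies at 4.40 and 1.83, and the beta2 integrins all lie right of 0 in the knockdown panel.

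The genes with the profile most like a member were found by Pearson correlation of log2 CPM over the 23 libraries among 10893 genes. Libraries of a group lie together, so these values mostly describe the order of the 4 groups. Nearest to FN1 were ANPEP (r = 0.960), THBD (0.960) and FGL2 (0.949). Nearest to ITGB1 were AHCYL1 (0.971), BASP1 (0.970) and ITGB8 (0.970). Nearest to ITGA1 were PLIN2 (0.995), PARM1 (0.993) and PTGS2 (0.992). PLIN2, a lipid droplet protein, had means of 367.4, 267.8, 2397 and 1979 CPM in WT_shCTRL, WT_shPTPN6, CD33KO_shCTRL and CD33KO_shPTPN6.

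Markers of the labelled cells and of other cells moved with the groups as well. All 12 macrophage and monocyte markers had reads in each group, and their summed level was lowest in CD33KO_shCTRL (1624 to 1891 CPM) and highest in WT_shPTPN6 (4391 to 4730), with 2918 to 3343 in WT_shCTRL and 3227 to 3463 in CD33KO_shPTPN6. The markers did not all follow this sum. From WT_shCTRL to CD33KO_shCTRL, means fell from 964.2 to 346.5 CPM for TYROBP and from 1207 to 425.7 for FCER1G. CD14 instead rose from 281.4 to 610.0 CPM and CD68 from 36.2 to 44.2. CD14 was highest in CD33KO_shPTPN6, at 1327 CPM. From WT_shCTRL to WT_shPTPN6, FCER1G fell to 924.2 CPM, MSR1 from 37.8 to 8.41 and MARCO from 0.97 to 0.60, while the other markers of this list rose. Fibroblasts make fibronectin, and the summed level of 10 fibroblast markers was 34.9 to 75.0, 25.3 to 73.9, 59.5 to 95.5 and 47.0 to 112.9 CPM in WT_shCTRL, WT_shPTPN6, CD33KO_shCTRL and CD33KO_shPTPN6, the order also used next. Within this list FAP had means of 0.34, 3.87, 13.1 and 9.10 CPM, PDGFRA of 12.2, 4.95, 22.4 and 13.9, and COL1A1 of 18.7, 14.4, 13.1 and 19.4. The sum of 10 endothelial markers was 212.4 to 228.0, 397.1 to 421.7, 429.5 to 473.4 and 728.1 to 786.4 CPM. PECAM1, which monocytes also express, made up 162.2, 380.7, 368.3 and 708.1 CPM of its group means, while CDH5 did not exceed 0.54, and CDH5 and TEK were at 0 in CD33KO_shPTPN6. TIE1 had means of 5.51, 1.87, 49.1 and 18.5 CPM and ESAM of 3.45, 0.83, 10.7 and 4.15, both highest in CD33KO_shCTRL, and ROBO4 had 27.4, 9.32, 2.93 and 4.13.

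The virus was made in HEK-293FT cells. A list of 10 epithelial and HEK-293 markers summed to 47.1 to 66.4, 65.9 to 104.1, 105.7 to 139.9 and 91.2 to 112.9 CPM, with EPCAM at most 0.38, and LIN28B at 0 in all groups but CD33KO_shCTRL (0.15). CDH1 had means of 24.4, 63.7, 52.2 and 73.0 CPM and CDH2 of 14.3, 3.24, 63.9 and 25.7, and these cadherins made up most of the sum in every group. INA went the other way with knockout, with means of 17.4, 6.03, 0.28 and 0.34 CPM. Platelet markers matter for ITGB3. Their sum was 17.3 to 22.7, 15.2 to 19.8, 17.9 to 28.2 and 6.42 to 11.9 CPM, the platelet partner ITGA2B did not exceed 0.33, and GP1BB was at 0 in every group. PPBP had means of 4.23, 4.99, 17.4 and 3.25 CPM and PF4 of 0.076, 0.78, 1.15 and 0.082, both highest in CD33KO_shCTRL, and TREML1 had 14.8, 11.3, 4.11 and 5.40. The 11 lymphoid markers summed to 603.4 to 737.0, 171.4 to 211.2, 616.1 to 704.1 and 350.2 to 404.4 CPM, of which GNLY and TRAC held most. GNLY had means of 349.4, 8.87, 550.4 and 264.3 CPM and TRAC of 313.4, 175.1, 105.1 and 96.2, in opposite directions with knockout. The T cell chain CD3E did not exceed 0.13, and CD3D had 0.094, 0.23, 1.36 and 0.73. The part of these marker differences in the integrin and fibronectin values was not tested.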

How the data were processed

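Human THP1 macrophage RNA was counted at 3' ends (libraries from 100 ng RNA, per the labels) in 23 of 24 labelled samples; CD33KO_shPTPN6 replicate 2 was not analysed here. The authors deposited raw counts per gene. Named without roles in the submitters' processing notes are the hg38 genome, STAR 2.7.3a, bcl2fastq, Subread 2.0.0 with featureCounts, DESeq2 1.26.0 and R 3.6.1. Annotation, strand setting and duplicate removal are not given in the sources used here. Unstranded counting could add antisense reads to a gene, or take reads from it if reads lying in both genes were left out.

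Of 60617 identifiers 60261 matched a symbol. In R 4.3.3, edgeR 4.0.16 filtered genes (filterByExpr, 13098 left), scaled libraries by TMM and fitted a mean per group to all libraries with a robust quasi-likelihood model. The 6 contrasts were adjusted by Benjamini-Hochberg over all tested genes, with a threshold of 0.05. SE, which is approximate, was obtained by dividing the size of the log2 fold change by the root of its F statistic. Library totals of 2024032 to 6269304 counts limit the precision of genes near 5 CPM. Alternatives were RLE scaling, DESeq2 1.42.0, no filter, only the groups compared, a replicate block, leaving out each library, and thinning to the shallowest library, the last chosen after seeing the data.

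The members, lists and tests were chosen with earlier results of these data known. Named genes were the 10 members, their overlapping genes PELO and ZNF740, CD33 and PTPN6, up to 3 called genes per list, comparison and direction with the smallest adjusted p and a mean of at least 5 CPM (some left out for length), and the 3 nearest genes to FN1, ITGB1 and ITGA1 by correlation of log2 CPM with a prior count of 2. No libraries held identical counts. Same-numbered libraries of different groups did not deviate together (r from -0.05 to 0.03 over 33 pairs).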

Additional observations from a re-analysis of the deposited data

Results flagged for a closer look

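In WT_shCTRL, replicate 2 held 56.3 CPM of ITGAV, below the other 5 libraries at 62.8 to 65.1, a gap large for the range of its group. It was the only such library among 40 combinations of gene and group, where chance gives about 1 in 20.

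The knockdown effect differed between genotypes, by the interaction test of edgeR, for 6 members. Of these 3 were called higher and 3 lower, against 14.5% and 13.9% of all tested genes. On the log2 scale the knockout value less the wild-type value was -3.99 for FN1, -0.41 for ITGA5, -0.29 for ITGB1, 0.64 for ITGA4, 0.91 for ITGB3 and 0.46 for ITGB5. FN1 rose with knockdown in wild type and fell in the knockout. ITGA4 rose and ITGB5 fell in both genotypes, ITGA4 more in the knockout and ITGB5 more in wild type. ITGA5 rose in both, more in wild type.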

How the results depend on the processing

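Over 60 results (10 genes in 6 comparisons) and 1150 values under alternatives, 1122 kept direction and side of the threshold, 1 lost its call, 3 gained one and 24 changed sign. The 24 were values near 0 or not called. ITGA6 in the knockout with control vector (main 0.00) was -0.0088 with RLE scaling, -0.0089 with DESeq2 and -0.043 without a filter, and -0.037 to 0.045 with a library left out. ITGB1 under knockdown in the knockout (main 0.00) was -0.0092 with only the groups compared and -0.040 when thinned, and -0.038 to 0.038 with a library left out. ITGB3 under the same knockdown (main -0.01) was 0.0020 without a filter and -0.067 to 0.073 with a library left out. The ITGA1 interaction was -0.25 when thinned (adjusted p = 0.631). Thinning also ended the ITGA1 call for knockdown in wild type (-0.12, adjusted p = 0.771), at 7 to 29 reads per library before thinning. This call held under the other 17 alternatives, at -0.82 to -0.60 with a library left out. Thinning was drawn at random only once, and the part of depth in this change was not tested further. The ITGAV knockdown effect in the knockout and the ITGA6 interaction gained a call without the libraries named with them. Counts of called genes and of called members stayed within 1.5 times under all alternatives. Same-numbered libraries of different groups did not deviate together, which does not show whether they were handled together. With a replicate block, 7362, 7878, 8270, 5400, 7294 and 3626 genes were called for the knockout, the knockdown in wild type, both, the knockdown in the knockout, the knockout with hairpin and the interaction, against 7428, 7941, 8356, 5512, 7401 and 3717 without it.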
